A study of Rattus norvegicus with 4 samples.

Results

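Endothelial barcodes rich in Sox17 were described in 4 single-cell RNA libraries of rat muscle. A barcode is the droplet tag that stands for a cell, and its UMIs (unique molecular identifiers) count RNA molecules. The barcodes were chosen by measured UMIs: at least 500 UMIs, at least 200 genes and at most 20% mitochondrial UMIs, an endothelial gate, and a marker rule. The gate asked that Fabp4, Aqp1, Timp4, Slc28a2, Tcf15, Meox2, Gpihbp1, Rgcc, Vwf, Selp and Plvap together hold at least 1% of the UMIs. The marker rule asked for at least 3 UMIs over the arterial genes Gja5, Gja4, Sox17 and Sema3g and at most 2 over the venous genes Selp, Sele, Vcam1 and Plvap. It selected 1472 barcodes, of 7207 that passed the gate, 14233 that were kept and 17504 deposited.

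The libraries held total cells from enzyme-digested tibialis anterior (TA), a limb muscle, and extraocular muscles (EOM), which move the eye, of rats aged 12 months. There was 1 library each for EOM labelled DMD, EOM labelled WT, TA labelled DMD and TA labelled WT, where WT is wild type and DMD is the disease state as the labels abbreviate it. The labels name neither a treatment, strain, sex, altered allele nor number of animals, nor whether both muscles came from the same animals. In each of the 4 samples the title gives the other disease state than the disease state field does, and all DMD and WT labels below follow that field, whose state is also the one in the names of the deposited files. The selected barcodes numbered 257, 167, 622 and 426 in EOM labelled DMD, EOM labelled WT, TA labelled DMD and TA labelled WT, with median depths of 3082, 2806, 3166.5 and 3107 UMIs. Deposited barcode sequences found in 2 libraries numbered 22, and 5 of the selected barcodes were among them, none of which was selected in both.

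Arterial endothelial cells line the vessels that bring blood to a tissue. Notch signalling through the ligand Dll4, and SOXF transcription factors such as Sox17, set up arterial identity. The connexins encoded by Gja5 and Gja4 form gap junctions that carry electrical signals along arterioles. In skeletal muscle the small arteries branch into a dense capillary bed, whose endothelial cells greatly outnumber theirs.

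The promoters of the marker genes, and of the genes that passed the test against other endothelial barcodes, are shown because the levels of these genes define the selection and its difference. RefSeq promoters of build GRCr8, 250 bases before to 50 after the start, were found for 6 of 7 genes, the other being Sox17. Gja5 (connexin 40) lies at chr2:187290977-187291276 on the + strand, Gja4 (connexin 37) at chr5:144920275-144920574 on the - strand and Sema3g, a secreted semaphorin, at chr16:6419775-6420074 on the + strand. Nrarp, an inhibitor induced by Notch signalling, lies at chr3:28390495-28390794 on the + strand, Apold1, an early-response gene of endothelial cells, at chr4:169552349-169552648 on the + strand and Rgs16, a regulator of G protein signalling, at chr13:68437870-68438169 on the + strand. Capitals mark matches on either strand to TGGGAA (RBPJ, the DNA-binding partner of Notch), ACAATG (SOX) or CAGGAAG (ETS-FOX).
Gja5: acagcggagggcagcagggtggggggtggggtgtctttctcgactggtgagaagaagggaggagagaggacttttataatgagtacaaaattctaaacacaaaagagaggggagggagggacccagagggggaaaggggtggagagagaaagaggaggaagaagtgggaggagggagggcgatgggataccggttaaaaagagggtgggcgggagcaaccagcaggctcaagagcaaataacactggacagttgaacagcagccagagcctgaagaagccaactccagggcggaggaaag
Gja4: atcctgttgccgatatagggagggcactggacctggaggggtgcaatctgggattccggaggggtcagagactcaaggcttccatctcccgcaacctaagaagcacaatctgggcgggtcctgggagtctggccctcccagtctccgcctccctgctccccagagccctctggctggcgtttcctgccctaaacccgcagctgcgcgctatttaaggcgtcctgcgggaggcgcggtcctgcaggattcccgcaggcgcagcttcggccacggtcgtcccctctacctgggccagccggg
Sema3g: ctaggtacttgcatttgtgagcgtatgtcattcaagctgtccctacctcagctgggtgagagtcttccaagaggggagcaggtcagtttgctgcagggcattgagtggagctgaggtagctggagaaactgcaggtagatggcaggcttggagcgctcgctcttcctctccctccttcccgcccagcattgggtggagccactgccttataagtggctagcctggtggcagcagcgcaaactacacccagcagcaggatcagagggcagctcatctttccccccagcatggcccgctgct
Nrarp: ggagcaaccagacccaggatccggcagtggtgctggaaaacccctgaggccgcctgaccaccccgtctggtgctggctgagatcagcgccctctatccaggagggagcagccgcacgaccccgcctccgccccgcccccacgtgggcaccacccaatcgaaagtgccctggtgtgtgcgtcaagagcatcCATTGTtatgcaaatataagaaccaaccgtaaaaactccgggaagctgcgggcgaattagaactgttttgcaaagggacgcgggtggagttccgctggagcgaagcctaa
Apold1: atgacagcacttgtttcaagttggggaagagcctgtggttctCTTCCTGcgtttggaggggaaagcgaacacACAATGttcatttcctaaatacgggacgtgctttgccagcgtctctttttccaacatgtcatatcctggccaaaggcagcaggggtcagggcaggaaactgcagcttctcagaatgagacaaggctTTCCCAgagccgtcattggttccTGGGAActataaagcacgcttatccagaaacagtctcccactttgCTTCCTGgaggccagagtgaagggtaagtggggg
Rgs16: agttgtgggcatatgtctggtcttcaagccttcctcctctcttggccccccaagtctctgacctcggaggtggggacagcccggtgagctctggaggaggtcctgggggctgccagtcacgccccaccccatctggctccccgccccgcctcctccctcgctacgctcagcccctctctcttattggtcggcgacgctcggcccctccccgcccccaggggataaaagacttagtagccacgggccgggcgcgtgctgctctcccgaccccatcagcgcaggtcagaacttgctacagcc
Apold1 held 2 RBPJ, 1 SOX and 2 ETS-FOX matches, Nrarp held 1 SOX match, and the other promoters held none. Of 33469 promoters of the same length 25.7% held the RBPJ letters, 13.2% the SOX letters and 12.5% the ETS-FOX letters. A match is a description of the letters and not a binding site.

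The rule selected almost wholly through Sox17. Of the 1472 selected barcodes, 1029 (69.9%, 67.5 to 72.2) had Sox17 UMIs and none of Gja5, Gja4 or Sema3g. The others comprised 321 with 1 or 2 UMIs over those 3 genes and 122 with 3 or more. Intervals in parentheses are 95% intervals, exact binomial for shares and exact Poisson for levels, and cover counting error only. Sox17 held 87.5% of the marker UMIs, Gja4 6.11%, Gja5 4.90% and Sema3g 1.53%. Barcodes with Sox17 alone made up 79.4% of those selected in EOM labelled DMD, 82.6% in EOM labelled WT, 62.1% in TA labelled DMD and 70.7% in TA labelled WT. In all, 81 barcodes held both connexins and 12 held all 4 markers.

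**Figure D1:**
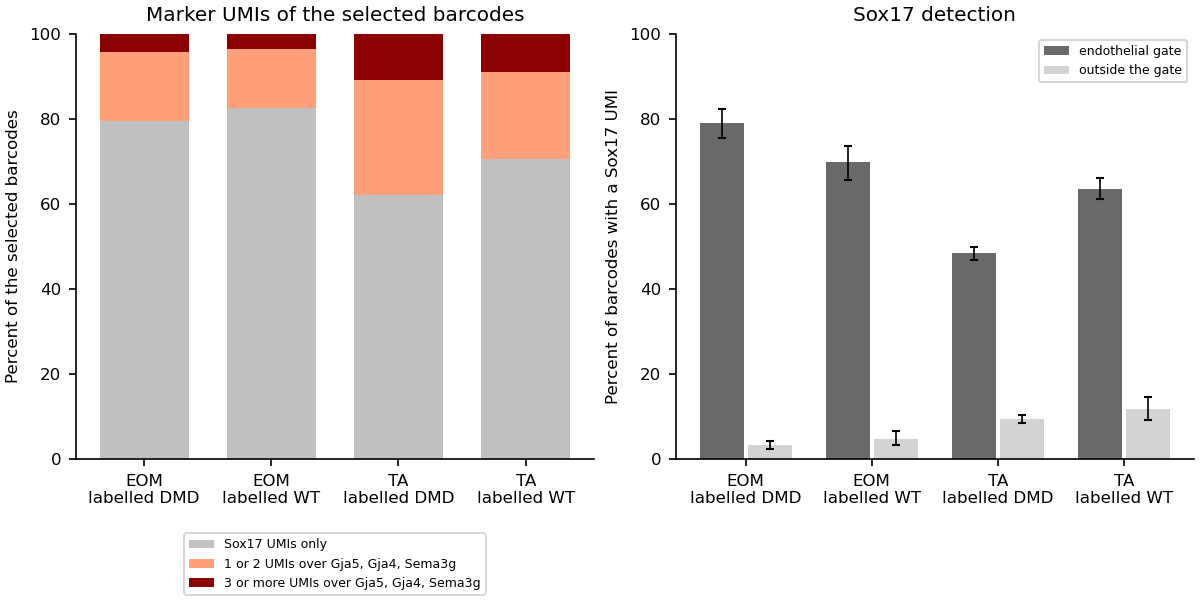
Left, percent of the selected barcodes (y axis) by their UMIs over Gja5, Gja4 and Sema3g in each library (x axis). Right, percent of barcodes with a Sox17 UMI inside and outside the endothelial gate, with exact 95% binomial intervals. Sox17 was found in 48.3% to 79.0% of gated barcodes, and barcodes with Sox17 alone were the majority of those selected in each library.

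The label arterial was borne out weakly, since Sox17 was widespread among endothelial barcodes. A Sox17 UMI was found in 79.0% of gated barcodes in EOM labelled DMD, 69.8% in EOM labelled WT, 48.3% in TA labelled DMD and 63.6% in TA labelled WT. Outside the gate the shares were 3.23, 4.83, 9.35 and 11.8%, at median depths of 5660, 5865.5, 1166 and 3644.5 UMIs against 2598.5, 2210.5, 1184.5 and 2334 inside it. Levels are given in CPM, the UMIs of a gene per 1000000 UMIs of the barcodes. Sox17 had 1565 (1483 to 1651), 1586 (1478 to 1699), 1092 (1051 to 1134) and 1314 (1255 to 1375) CPM in the selected barcodes in EOM labelled DMD, EOM labelled WT, TA labelled DMD and TA labelled WT. Gja5 had 48.3 (34.8 to 65.2), 63.3 (43.3 to 89.3), 71.8 (61.5 to 83.3) and 89.0 (74.1 to 106) CPM there and 3.59, 6.40, 7.55 and 20.6 CPM outside the gate. Gja4 had 46.0, 45.5, 111 and 95.3 CPM in them and 55.5, 76.5, 104 and 175 CPM outside the gate in the same order. Sema3g had 14.9, 11.9, 24.3 and 27.5 CPM in them and 1.10, 2.64, 4.09 and 8.64 CPM outside the gate. These 4 genes chose the barcodes, so their levels are a description.

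Arterial genes that the rule did not use gave a mixed picture. Hey1, a Notch target, had 2.30, 0, 3.71 and 4.94 CPM in the selected barcodes in EOM labelled DMD, EOM labelled WT, TA labelled DMD and TA labelled WT. Bmx, an arterial kinase, had 0, 0, 5.78 and 2.83 CPM, and a level of 0 allows up to 3.45 CPM in EOM labelled DMD and 5.93 CPM in EOM labelled WT, the level of 3 UMIs. Hey1 and Bmx were thus at or near 0 in each library, which most listed arterial genes were not. Of the 30 listed arterial genes outside the rule, 4, 4, 0 and 2 were at 0 in the selected barcodes, in the same order. All 30 listed arterial genes outside the rule summed to 9083, 10609, 8133 and 10052 CPM in the selected barcodes. They summed to 8281, 9772, 8814 and 8992 CPM in the 2703 gated barcodes with no arterial marker UMI and at most 2 venous UMIs, called marker-free below. The sum was thus higher in the selected barcodes of 3 libraries and lower in those of TA labelled DMD. Outside the gate the same list summed to 9897, 6841, 13695 and 7041 CPM. That was above the selected barcodes in both libraries labelled DMD and below them in both labelled WT, so the sum is not particular to endothelial barcodes. In marker-free barcodes Bmx was at 0 in EOM labelled DMD, EOM labelled WT and TA labelled WT, and Hey1 in EOM labelled DMD. The pan-endothelial list held 12185, 12009, 8971 and 11021 CPM in the selected barcodes and 426, 531, 1117 and 1119.6 CPM outside the gate. The barcodes are named here by their leading gene, as Sox17-rich endothelial barcodes.

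Next to the limit of the rule, 538 barcodes had exactly 3 marker UMIs and were selected, and 776 had exactly 2 and were not. Sox17 had 962, 1103, 929 and 941 CPM with exactly 3 marker UMIs and 712, 683, 825 and 682 CPM with exactly 2, in EOM labelled DMD, EOM labelled WT, TA labelled DMD and TA labelled WT. Gja5 had 17.9, 41.1, 40.2 and 28.9 CPM and 9.07, 27.9, 30.9 and 30.4 CPM, in the same order. The median depth was 2714, 2303, 2391 and 2828 UMIs with exactly 3 and 2206, 2307.5, 1694.5 and 2525 with exactly 2.

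Depth and genes of other cell types differed between the classes and libraries, and their part in the results below was not tested except where a value is given. Marker-free barcodes had median depths of 1522.5, 1867.5, 771 and 1593 UMIs in EOM labelled DMD, EOM labelled WT, TA labelled DMD and TA labelled WT, against 3082, 2806, 3166.5 and 3107 in the Sox17-rich barcodes. At least 3 UMIs of pericyte, smooth muscle, fibroblast or leukocyte genes were found in 18 of 257, 1 of 167, 132 of 622 and 13 of 426 Sox17-rich barcodes. In marker-free barcodes TA labelled DMD had the highest sum of the pericyte, smooth muscle, fibroblast and leukocyte genes alike. In Sox17-rich barcodes it was highest for pericyte and smooth muscle genes. Fibroblast genes were highest there in EOM labelled DMD and leukocyte genes in TA labelled WT. The 8 pericyte genes summed to 321, 25.7, 856 and 254 CPM in Sox17-rich and 295, 7.17, 1143 and 30.7 CPM in marker-free barcodes. The 8 smooth muscle genes summed to 206, 21.7, 865 and 86.9 CPM and 62.5, 21.5, 1984 and 50.8 CPM, with Cnn1, Lmod1 and Myh11 at 0 in the Sox17-rich barcodes of EOM labelled WT. The 8 fibroblast genes summed to 755, 109, 244 and 50.1 CPM and 199, 183, 2130.4 and 16.9 CPM, and the 11 leukocyte genes to 88.5, 33.6, 83.8 and 109 CPM and 45.4, 21.5, 488 and 10.6 CPM. Among Sox17-rich barcodes 1 barcode held 49.5% of the fibroblast UMIs in EOM labelled DMD, and 1 held 72.3% of the leukocyte UMIs in TA labelled WT. The red blood cell list summed to 73.6, 516, 1619 and 494 CPM in Sox17-rich barcodes, and 1 barcode held 85.5% of its UMIs in TA labelled DMD.

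The share of endothelial barcodes that met the rule differed between libraries, in the same order as the share with a Sox17 UMI. It was 45.2% (41.1 to 49.4) in EOM labelled DMD, 257 of 568, and 32.4% (28.3 to 36.6) in EOM labelled WT, 167 of 516. It was 13.6% (12.6 to 14.6) in TA labelled DMD, 622 of 4590, and 27.8% (25.6 to 30.1) in TA labelled WT, 426 of 1533. The DMD library was thus higher than its WT library in EOM and lower in TA, with intervals that did not overlap, while the intervals of EOM labelled WT and TA labelled WT overlapped. Each kept barcode with at least 1000 UMIs was also thinned to 1000 UMIs, and the gate and marker rule were applied to the thinned counts. The shares were then 14.8% (11.8 to 18.2) of 508 in EOM labelled DMD and 9.52% (7.06 to 12.5) of 483 in EOM labelled WT. They were 4.71% (3.94 to 5.59) of 2631 in TA labelled DMD and 7.43% (6.09 to 8.95) of 1360 in TA labelled WT. After thinning the intervals of the EOM pair overlapped and those of the TA pair did not. Without Sox17 the rule kept 11, 6, 67 and 38 barcodes, which are 1.94% (0.971 to 3.44), 1.16% (0.428 to 2.51), 1.46% (1.13 to 1.85) and 2.48% (1.76 to 3.39). The intervals of each DMD and WT pair then overlapped, as did those of each EOM and TA pair. As a share of all kept barcodes the values were 11.2%, 13.2%, 7.28% and 20.1%, so that the direction in EOM turned. In TA labelled DMD the share was 18.8% (17.3 to 20.4) among gated barcodes with fewer than 3 UMIs of other cell types.

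**Figure D2:**
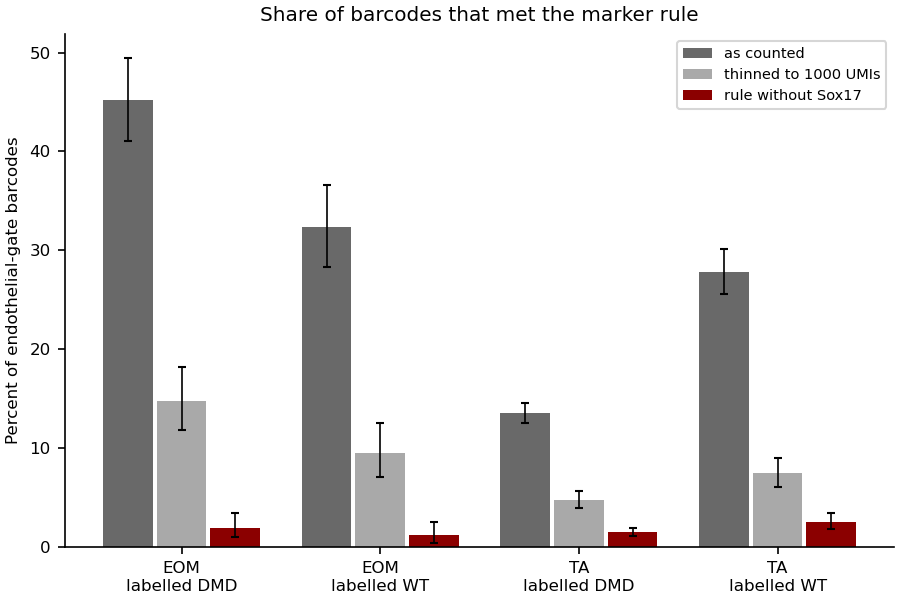
Percent of endothelial-gate barcodes that met the marker rule (y axis) in each library (x axis), as counted, after thinning to 1000 UMIs and with Sox17 left out of the rule. Bars are shares and lines exact 95% binomial intervals. EOM labelled DMD was highest at 45.2% as counted and 14.8% after thinning, and no library exceeded 2.48% without Sox17.

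Within the Sox17-rich barcodes, those that held a UMI of Gja5, Gja4 or Sema3g were set against those with Sox17 alone. Those with such a UMI had more of the arterial genes Fbln5, Igfbp3, Unc5b, Tm4sf1, Jag1 and Crip1 in each of the 4 libraries. They had less of Kdr, Ca4, Aplnr and Pde2a. The barcodes with such a UMI numbered 53, 29, 236 and 125 in EOM labelled DMD, EOM labelled WT, TA labelled DMD and TA labelled WT, and those with Sox17 alone 204, 138, 386 and 301. This split was chosen after the values were seen and is a description, with no test. Barcodes with Sox17 alone needed at least 3 Sox17 UMIs to be selected, while those with such a UMI could hold fewer. Of all 1472 selected barcodes 1294 held 3 or more Sox17 UMIs and 29 held none. All those with fewer than 3 had such a UMI, so the sides differ in Sox17 through the rule. Of 3880 genes with at least 20 UMIs in each library, 22 (0.567%) had a ratio whose counting interval lay above 1 in all 4 libraries and 25 (0.644%) below 1. Of 21 listed arterial genes that could be compared, the 6 named above lay above 1 and 1, Clu, below. Of 10 listed capillary genes none lay above 1 and 1, Kdr, below. Ca4, Aplnr and Pde2a were on no list and were picked after their values were seen.

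Fbln5, a fibulin of the elastic vessel wall, had 168 against 81.4 CPM in EOM labelled DMD, 482 against 122 CPM in EOM labelled WT, 164 against 90.9 CPM in TA labelled DMD and 399 against 122 CPM in TA labelled WT, in barcodes with such a UMI against barcodes with Sox17 alone. Its ratios were 2.07 (1.33 to 3.19), 3.93 (2.58 to 5.98), 1.81 (1.43 to 2.30) and 3.27 (2.58 to 4.16). Every library was higher in the barcodes with a connexin or semaphorin UMI. Igfbp3, a secreted binder of insulin-like growth factors, had 898 against 518 CPM in EOM labelled DMD, 1117 against 536 CPM in EOM labelled WT, 569.9 against 252 CPM in TA labelled DMD and 1635 against 497 CPM in TA labelled WT, with ratios of 1.73, 2.08, 2.26 and 3.29. Unc5b, a netrin receptor of arterial endothelium, had 190.1 against 70.5 CPM in EOM labelled DMD, 399.7 against 135 CPM in EOM labelled WT, 94.1 against 56.7 CPM in TA labelled DMD and 332 against 140.1 CPM in TA labelled WT, with ratios of 2.70, 2.97, 1.66 and 2.37. The lowest interval bound of Unc5b was 1.22, in TA labelled DMD, so no interval of it reached 1. Jag1, a Notch ligand, had ratios of 3.24, 2.42, 1.93 and 1.64. Tm4sf1, an endothelial membrane protein, had ratios of 1.84, 2.01, 1.59 and 3.70 and Crip1, a LIM-domain protein, of 2.76, 1.69, 2.42 and 6.31. All of these lay above 1. Fbln2, another fibulin, had ratios of 1.90 (0.796 to 4.35), 14.6 (2.79 to 144), 5.55 (3.75 to 8.45) and 19.3 (8.89 to 49.9), and the interval of EOM labelled DMD included 1. Mecom, an arterial transcription factor, had ratios of 1.64, 2.45, 1.08 and 2.44. The Notch ligand Dll4 did not follow, with ratios of 0.844 (0.677 to 1.05), 1.39 (0.999 to 1.90), 1.05 (0.907 to 1.22) and 1.20 (1.03 to 1.41).

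Kdr, the main VEGF receptor, had 713 against 991 CPM in EOM labelled DMD, 697 against 1095 CPM in EOM labelled WT, 468 against 601 CPM in TA labelled DMD and 853 against 1343 CPM in TA labelled WT, with ratios of 0.719, 0.636, 0.778 and 0.635. Ca4, a carbonic anhydrase on the surface of capillary endothelium, had 186 against 509 CPM in EOM labelled DMD, 318 against 629.6 CPM in EOM labelled WT, 152 against 385 CPM in TA labelled DMD and 258 against 796 CPM in TA labelled WT, with ratios of 0.365, 0.505, 0.395 and 0.324. Aplnr, the apelin receptor, had ratios of 0.310, 0.342, 0.546 and 0.378 and Pde2a, a cyclic nucleotide phosphodiesterase, of 0.441, 0.282, 0.417 and 0.367. Each of these intervals lay below 1. Median depths were 3598, 3312, 3848 and 3422 UMIs in the barcodes with such a UMI and 2939, 2731, 2930.5 and 2988 in those with Sox17 alone.

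**Figure D3:**
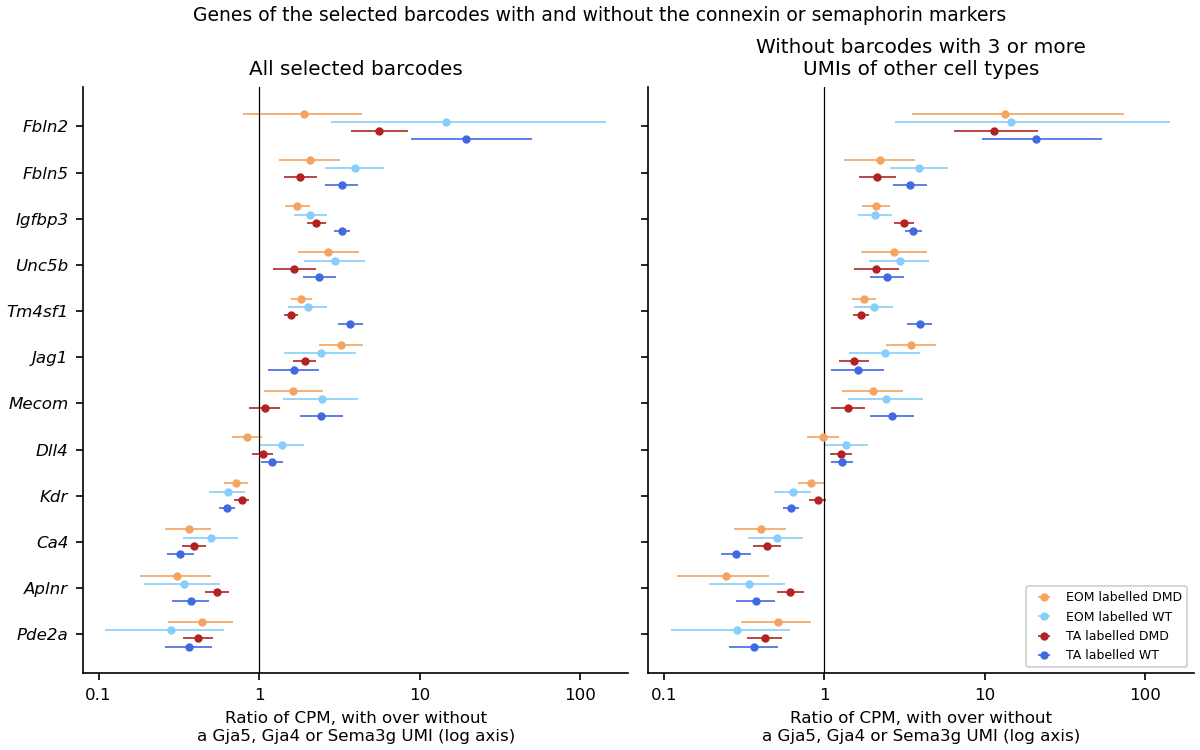
Ratio of CPM (x axis, log scale) in Sox17-rich barcodes with a Gja5, Gja4 or Sema3g UMI over those with Sox17 alone, per gene (y axis) and library (colours), with 95% counting intervals. The right panel leaves out barcodes with at least 3 UMIs of mural, fibroblast or leukocyte genes. Fbln5, Igfbp3 and Unc5b lie right of 1 and Ca4, Aplnr and Pde2a left of 1 in each library in both panels, while Dll4 lies near 1.

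Genes of mural cells, the pericytes and smooth muscle cells that wrap vessels, moved with this split in 3 libraries and not in EOM labelled WT. Rgs5, a pericyte gene, had 367 against 18.8 CPM in EOM labelled DMD, 10.2 against 4.90 CPM in EOM labelled WT, 433 against 72.3 CPM in TA labelled DMD and 161 against 3.18 CPM in TA labelled WT. The 8 pericyte genes summed to 1088, 10.2, 1569 and 739 CPM with such a UMI and 42.3, 29.4, 226 and 9.55 CPM with Sox17 alone. The smooth muscle genes summed to 631, 20.5, 1560.2 and 148 CPM and 51.7, 22.0, 250.2 and 56.2 CPM. In the same order, the 5 highest of all Sox17-rich barcodes held 88.9%, 46.15%, 22.0% and 95.8% of the pericyte UMIs. Of the smooth muscle UMIs the 5 highest held 86.6%, 63.6%, 37.8% and 65.85%, and 1 barcode in EOM labelled DMD held 69.8%. A few barcodes thus held most of these UMIs in EOM labelled DMD and TA labelled WT. In EOM labelled WT, Kcnj8, Abcc9 and Pdgfrb were at 0 in the barcodes with such a UMI, and Fbln5, Igfbp3 and Unc5b were higher there. Leaving out barcodes with at least 3 UMIs of other cell types kept 351 of 443 with such a UMI and 957 of 1029 with Sox17 alone. The pericyte genes then summed to 18.6, 10.2, 21.9 and 14.2 CPM with such a UMI. The filter counted these same genes, so a low sum after it was fixed in advance. The ratios were then 2.22, 3.90, 2.14 and 3.41 for Fbln5, 2.11, 2.07, 3.13 and 3.58 for Igfbp3 and 2.73, 2.94, 2.10 and 2.46 for Unc5b, larger than before in TA labelled DMD. The ratios of Ca4 were 0.403, 0.504, 0.442 and 0.283. Of 3800 genes 20 (0.526%) then lay above 1 in all 4 libraries, among them 7 of 21 arterial genes, with Mecom as the addition, and 15 (0.395%) lay below 1. Kdr and Clu were no longer among those below, so none of the 10 capillary genes was, while Ca4, Aplnr and Pde2a were. Mgp, a matrix protein of vessel walls and cartilage, had a ratio of 3.76 in TA labelled DMD before and 1.51 after.

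Against marker-free endothelial barcodes of the same library, Apold1, Nrarp and Rgs16 rose in the Sox17-rich barcodes and 2 genes fell. The test was edgeR's quasi-likelihood test on counts summed per library and class, with library as a block and Benjamini-Hochberg adjustment over 7475 genes, leaving out the 17 genes of the rule. It called 3 genes higher (0.0401%) and 2 lower (0.0268%), 0.0669% in either direction, at an adjusted p under 0.05, and 533 genes had an unadjusted p under that value. The 4 libraries, each of another muscle or disease state, were the replicates.

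Apold1 had 619 (568 to 674), 601 (535 to 673), 233 (214 to 253) and 191 (169 to 215) CPM in the Sox17-rich barcodes of EOM labelled DMD, EOM labelled WT, TA labelled DMD and TA labelled WT, against 335, 369, 139 and 97.4 CPM in marker-free barcodes. The log2 fold change 0.80 ± 0.11 (SE) had an edgeR adjusted p of 0.0110. For Nrarp the levels were 1868 (1778 to 1961), 965 (881 to 1054), 811 (775 to 847) and 1056 (1003 to 1111) CPM, against 1062, 652, 477 and 616 CPM in marker-free barcodes. The log2 fold change 0.72 ± 0.10 (SE) of Nrarp had an edgeR adjusted p of 0.0110. Rgs16 reached 2172 (2075 to 2272), 981 (896 to 1071), 1295 (1249.7 to 1341) and 622 (582 to 665) CPM, against 1346, 469.6, 903 and 385 CPM in marker-free barcodes. The log2 fold change 0.71 ± 0.11 (SE) of Rgs16 had an edgeR adjusted p of 0.0352. All 3 genes were higher in 4 of 4 libraries, with intervals that did not overlap within a library, while the ranges over libraries overlapped between the classes. Without EOM labelled DMD, or without EOM labelled WT, edgeR called no gene higher (478 and 450 genes at an unadjusted p under 0.05), with adjusted p-values of 0.140 and 0.0999 for Apold1, 0.162 and 0.0999 for Nrarp and 0.283 and 0.218 for Rgs16. Without the library block edgeR called no gene (155 at an unadjusted p under 0.05), and DESeq2 with the block called 42 higher and 12 lower. With cells thinned to 1000 UMIs, the log2 fold changes were 0.73 for Apold1, 0.77 for Nrarp and 0.65 for Rgs16, all called by edgeR. Thinning made the counted UMIs equal, but the classes were chosen before it and cells under 1000 UMIs were left out. The classes thus still differed in original depth. With at least 2000 UMIs per barcode the edgeR adjusted p-values were 0.0437 for Apold1, 0.0437 for Nrarp and 0.137 for Rgs16, so Rgs16 was not called. Against barcodes with 0 to 2 marker UMIs the edgeR adjusted p-values were 0.0577, 0.0345 and 0.0577. Apold1 and Rgs16 were then not called.

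Of the genes that fell, Hba-a3 lies outside the naming rule and is named after its value was seen. Hba-a3, a haemoglobin gene, had a log2 fold change of -3.53 with an edgeR adjusted p of 0.00493, lower in 3 of 4 libraries. Mt-nd4l, a mitochondrial gene of the respiratory chain, had 111, 136, 241 and 221 CPM in Sox17-rich barcodes in EOM labelled DMD, EOM labelled WT, TA labelled DMD and TA labelled WT, against 193, 269, 360.1 and 365 CPM in marker-free barcodes. Its log2 fold change of -0.76 ± 0.11 (SE) had an edgeR adjusted p of 0.0171, and it was lower in 4 of 4 libraries. Without EOM labelled DMD the edgeR adjusted p of Mt-nd4l was 0.140, without EOM labelled WT 0.141 and with at least 2000 UMIs 0.327. The median share of mitochondrial UMIs per barcode was 5.89%, 6.37%, 4.06% and 5.10% in Sox17-rich barcodes, against 8.73%, 8.46%, 7.28% and 7.37% in marker-free barcodes, and its part in the results was not tested.

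**Figure D4:**
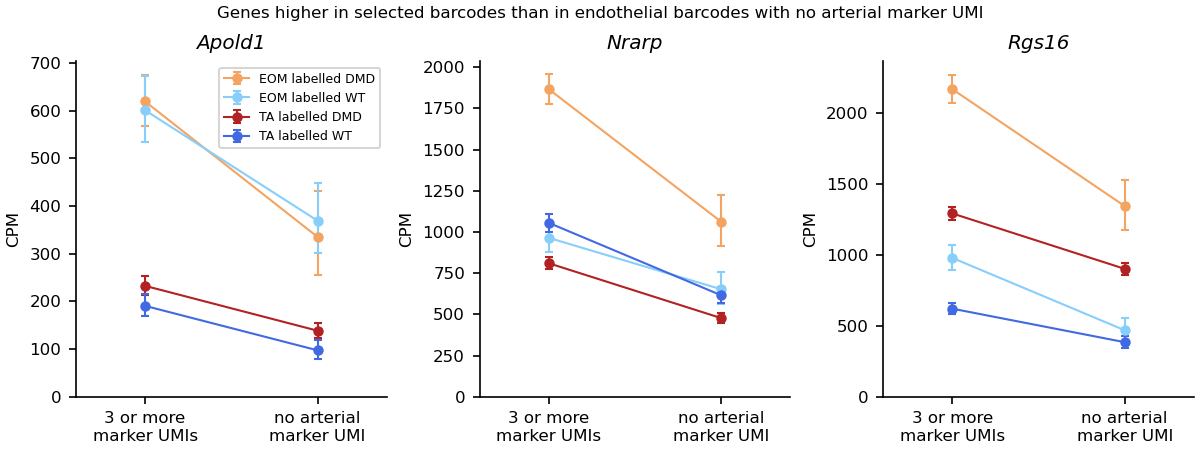
CPM (y axis) of Apold1, Nrarp and Rgs16 in Sox17-rich barcodes (left) and marker-free endothelial barcodes (right) of each library (coloured lines), with exact 95% Poisson intervals. All lines fall to the right, so each gene was higher in the Sox17-rich barcodes of its library.

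Levels were also set beside the number of marker UMIs, in barcodes thinned to 1000 UMIs. The marker UMIs were counted before thinning, so these groups still differed in original depth. Over the 4 libraries the median was 3860 UMIs with 6 or more marker UMIs, 3049.5 with 4 or 5 and 2557.5 with 3. It was 880 in marker-free barcodes, all before those under 1000 UMIs were left out. The part of original depth in the levels was not tested. Nrarp had 2124, 1133, 1060.1 and 1206 CPM with 6 or more marker UMIs and 1500, 708, 688 and 951 CPM with 4 or 5, in EOM labelled DMD, EOM labelled WT, TA labelled DMD and TA labelled WT. It had 1853, 982, 745 and 981 CPM with 3 and 923, 521, 507 and 644 CPM in marker-free barcodes. Every library was highest with 6 or more, and the level with 4 or 5 was below that with 3. Rgs16 had 2133, 1089, 1678 and 802 CPM with 6 or more and 1415, 555, 968 and 385 CPM in marker-free barcodes. Apold1 had 733, 778, 235 and 151 CPM with 6 or more, 773, 836, 177 and 227 CPM with 3 and 369, 403, 135 and 105 CPM in marker-free barcodes, so in 3 libraries it was highest elsewhere than at 6 or more.

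No gene of the arterial list passed the edgeR test. Of 30 genes 24 were tested, 12 had an unadjusted p under 0.05, and the median log2 fold change was 0.35 against -0.01 over all genes tested. Over all 7475 genes tested 533 had such an unadjusted p, and edgeR called 3 higher and 2 lower. Gja1, which encodes connexin 43, came nearest, with a log2 fold change of 0.63 ± 0.11 (SE) and an edgeR adjusted p of 0.0521. Fbln5 had 0.99 ± 0.17 with an edgeR adjusted p of 0.0531, Dll4 had 0.36 and Notch1, its receptor, 0.41. DESeq2 called 5 of the 24 higher (Efnb2, Fbln5, Gja1, Igfbp3 and Notch1) and none lower, against 42 higher and 12 lower over all 7475 genes. Of 13 tested Notch pathway genes 1, Nrarp, was called higher and none lower. The immediate-early list holds genes that switch on soon after a stimulus, tissue digestion included. Of its 19 tested genes edgeR called none, 14 had an unadjusted p under 0.05, DESeq2 called 9 higher, and the median was 0.43. These genes summed to 42544, 31681, 34845 and 32556 CPM in Sox17-rich and 33455, 21953, 29544 and 21943 CPM in marker-free barcodes, higher in the Sox17-rich barcodes of each library.

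Without TA labelled DMD edgeR called 92 genes higher (1.35%) and 30 lower (0.439%) of 6828. Of 24 arterial genes 8 were then called higher (Crip1, Efnb2, Fbln2, Fbln5, Gja1, Igfbp3, Tm4sf1 and Unc5b) and none lower. Of 19 immediate-early genes 13 were called higher, among them Fos, Egr1, Atf3 and Nr4a1, and none lower. Of 12 Notch pathway genes 2 (Hes1 and Nrarp) were higher, and of 15 flow-responsive genes 4 (Klf2, Klf4, Ccn1 and Plat). Of 5 pericyte genes 2 (Rgs5 and Steap4) were higher as well, as was 1 of 3 fibroblast genes (Dcn), and 3 of 3 red blood cell genes were lower. Of the 30 genes called lower 10 were mitochondrial, and no mitochondrial gene was called higher. Over 11 capillary genes none was called in this fit.

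Between the libraries of the tibialis anterior, the Sox17-rich barcodes of TA labelled DMD had less of Klf2, a transcription factor induced by blood flow, and of Esm1, a proteoglycan that endothelial cells secrete. They had more of the transcription factor Myc and of Capg, an actin-capping protein. A gene was called when the 95% counting interval of its CPM ratio lay past 2-fold, among genes with at least 100 CPM in the higher library. Of 1874 genes 64 were called higher (3.42%) and 29 lower (1.55%) in TA labelled DMD. Of all genes tested 2.51%, 47, were called and stood at least as high in the Sox17-rich barcodes as over their whole library, a guard against free RNA that every gene named from this rule passed. With 1 library on each side no difference has a replicate check.

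Klf2 had 212 CPM in TA labelled DMD against 972 CPM in TA labelled WT, a ratio of 0.219 (0.197 to 0.242), and was found in 43.7% of the barcodes in TA labelled DMD and 81.0% in TA labelled WT. Esm1 had 40.4 CPM in TA labelled DMD against 501 CPM in TA labelled WT, a ratio of 0.0807 (0.0647 to 0.0999). Both were several-fold lower in TA labelled DMD. Car2, a carbonic anhydrase, had 119.6 against 703 CPM, 0.170-fold (0.149 to 0.194). Alpl, alkaline phosphatase, had 22.7 against 112 CPM, 0.203-fold (0.147 to 0.278). Hmcn1, a large matrix protein, had 31.4 against 143 CPM, 0.219-fold (0.166 to 0.286), and Pkdcc, a secreted kinase, 54.5 against 229 CPM, 0.238-fold (0.193 to 0.292). All of these were lower in TA labelled DMD than in TA labelled WT. Calhm5, of a family of ion channels, had 142 against 552 CPM, 0.258-fold (0.227 to 0.293). Fam111a, a protease linked to DNA replication, had 436 against 1348 CPM, 0.323-fold (0.300 to 0.349). Marker-free barcodes had ratios below 1 for each of these 8 genes, with Klf2 at 146 against 595 CPM and Esm1 at 28.0 against 498 CPM.

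Capg had 293 CPM in TA labelled DMD against 12.7 CPM in TA labelled WT, a ratio of 23.0 (14.5 to 39.0), and was found in 55.5% of the barcodes in TA labelled DMD and 3.29% in TA labelled WT. Myc, a regulator of growth, had 245 against 36.0 CPM, 6.80-fold (5.11 to 9.24). Gadd45g, a stress-inducible growth arrest gene, had 902 against 134 CPM, 6.72-fold (5.79 to 7.84). Each was higher in TA labelled DMD than in TA labelled WT. Ifitm1, an interferon-induced membrane protein, had 356 against 48.0 CPM, 7.42-fold (5.79 to 9.65). Hif1a, the oxygen-responsive transcription factor, had 234 against 68.5 CPM, 3.42-fold (2.75 to 4.29). Nucb2, a calcium-binding protein, had 356 against 104 CPM, 3.43-fold (2.88 to 4.11). The remaining named genes, Mid1ip1 and Tmem45b, had 344 against 92.5 CPM, 3.71-fold (3.09 to 4.50) and 127 against 29.7 CPM, 4.27-fold (3.09 to 6.04). Marker-free barcodes were higher in TA labelled DMD for all 8 of these genes, with Capg at 266 against 21.2 CPM and Myc at 193 against 5.29 CPM.

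By list, 4 of 21 tested arterial genes were called lower in TA labelled DMD and 2 higher, with a median log2 ratio of -0.40 against -0.07 over all genes tested. Igfbp3 had 401 against 877 CPM, 0.457-fold (0.420 to 0.498), Unc5b 74.3 against 204 CPM, 0.364-fold (0.300 to 0.440) and Nrp1, a co-receptor for VEGF and semaphorins, 673 against 1507 CPM, 0.447-fold (0.419 to 0.477). Jag1 had 259 against 87.6 CPM, 2.95-fold (2.43 to 3.61). The fourth lower gene was Alpl, and the other higher gene was Mgp, which did not pass the free RNA guard. Of 11 flow-responsive genes 3 were lower (Klf2, Plpp3 and Alpl) and none higher. Klf4, the relative of Klf2, had 1328 against 2000.2 CPM, 0.664-fold (0.631 to 0.698) and was not called. Of 9 tested capillary genes 3 (Car2, Kdr and Btnl9) were lower, of 9 Notch pathway genes 1 (Jag1) was higher, and of 12 interferon genes none was called. Of 8 adhesion and chemokine genes 5 were higher (Ccl2, Ccl7, Cxcl1, Lgals3 and Fgl2), and none of the 5 passed the free RNA guard. All 3 tested smooth muscle genes and 3 of 4 pericyte genes were higher in TA labelled DMD as well. Without Sox17-rich barcodes that held at least 3 UMIs of other cell types, 36 genes were called higher and 19 lower, and each of the 16 genes named above was still called.

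Between the libraries of the extraocular muscles, Klf2 and Fam111a were lower and Myc, Mx1 and Cldn5 higher in EOM labelled DMD. Of 1885 genes 29 (1.54%) were called higher and 17 (0.902%) lower, and 22 (1.17%) passed the guard in either direction. Scaling by TMM, edgeR's normalization, would move every log2 ratio of this pair up by 0.107. Klf2 had 164 CPM in EOM labelled DMD against 1121 CPM in EOM labelled WT, a ratio of 0.147 (0.121 to 0.176), and was found in 35.4% of the barcodes in EOM labelled DMD and 82.0% in EOM labelled WT. Fam111a had 259.7 against 848 CPM, 0.306-fold (0.260 to 0.361). Depp1, a target of FOXO factors, had 153 against 605 CPM, 0.253-fold (0.205 to 0.311). Klf2, Fam111a and Depp1 were thus lower in EOM labelled DMD. Ccn1, a matricellular protein, had 575 against 1627 CPM, 0.353-fold (0.315 to 0.395). Hrct1 had 81.6 against 413 CPM, 0.197-fold (0.149 to 0.260), Rnasek 40.2 against 184 CPM, 0.219-fold (0.144 to 0.326) and Ces2c, a carboxylesterase, 28.7 against 109 CPM, 0.264-fold (0.158 to 0.431). Each of these was lower in EOM labelled DMD than in EOM labelled WT.

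Cldn5, the tight junction protein of endothelium, had 1737 CPM in EOM labelled DMD against 512 CPM in EOM labelled WT, a ratio of 3.39 (2.97 to 3.88). Myc had 124 against 27.7 CPM, 4.48-fold (2.56 to 8.48). Mx1, an interferon-induced GTPase, had 209 against 41.5 CPM, 5.04-fold (3.20 to 8.34). Each was higher in EOM labelled DMD than in EOM labelled WT. Ier5l, an immediate-early response gene, had 282 against 79.1 CPM, 3.56-fold (2.54 to 5.11). Hbegf, a growth factor of the EGF family, had 306 against 90.9 CPM, 3.36-fold (2.45 to 4.70). Both were under 100 CPM in EOM labelled WT. Ggta1, a galactosyltransferase, had 141 against 37.6 CPM, 3.76-fold (2.31 to 6.46) and Bcr, a regulator of small GTPases, 106 against 7.91 CPM, 13.4-fold (5.05 to 50.1). Bcr was found in 13.2% of the barcodes in EOM labelled DMD and 1.80% in EOM labelled WT. With barcodes thinned to 1000 UMIs, which leaves fewer UMIs to count, the calls of Depp1, Ces2c, Bcr, Ggta1, Hbegf and Myc were lost. The call of Bcr was also lost without barcodes that held other cell types' UMIs, and without the top barcode of each library, where it had 89.3 CPM in EOM labelled DMD.

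By list, 1 of 21 arterial genes was lower in EOM labelled DMD (Depp1) and 1 higher (Mgp, which did not pass the guard), with a median log2 ratio of -0.12 against -0.07 over all genes tested. Igfbp3 had 619 against 648 CPM, 0.955-fold (0.831 to 1.10) and Unc5b 102 against 186 CPM, 0.550-fold (0.407 to 0.743), neither of them called. Of 11 flow-responsive genes 2 were lower (Klf2 and Ccn1) and none higher. Of 17 immediate-early genes 4 were higher (Fos, Egr1, Myc and Gadd45b) and none lower, and Fos did not pass the guard. Egr1, a zinc finger transcription factor, had 4719 against 1953 CPM, 2.42-fold (2.25 to 2.59) and Gadd45b 749 against 299 CPM, 2.51-fold (2.10 to 3.02). Of 13 interferon genes 1, Mx1, was higher, and Irf1, an interferon-induced transcription factor, had 821 against 391 CPM, 2.10-fold (1.79 to 2.47) without a call. Of 9 Notch pathway genes none was called, and Nrarp had 1868 against 965 CPM, 1.94-fold (1.75 to 2.15). Of 9 capillary genes 1, Rbp7, was higher, and of 7 adhesion and chemokine genes 4 were higher and none of the 4 passed the guard. The 1 tested pericyte gene, Rgs5, and the 1 tested fibroblast gene, Dcn, were higher in EOM labelled DMD as well, and neither passed the guard.

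Between muscles in the pair labelled WT, the Sox17-rich barcodes of EOM had more of the chemokine Cxcl12, of Apold1 and of Abcb4, a phospholipid transporter, and less of Rbp7, a retinol-binding protein. Of 1865 genes 10 (0.536%) were called higher and 8 (0.429%) lower in EOM labelled WT, and 14 (0.751%) passed the guard in either direction. This contrast shares its libraries with those above, so its values stand side by side with theirs and are not separate support. Cxcl12 had 6872 CPM in EOM labelled WT against 2873 CPM in TA labelled WT, a ratio of 2.39 (2.29 to 2.50), and was found in 98.8% of the barcodes in EOM labelled WT and 96.9% in TA labelled WT. Its receptor Cxcr4 had 150.3 against 393 CPM, 0.382-fold (0.296 to 0.486). The ligand was thus higher and the receptor lower in EOM labelled WT. Abcb4 had 129 CPM in EOM labelled WT against 2.12 CPM in TA labelled WT, a ratio of 60.7 (19.9 to 302), with 3 UMIs in TA labelled WT. Apold1 had 601 against 191 CPM, 3.15-fold (2.67 to 3.73). These were higher in EOM labelled WT.

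Lrat, which esterifies retinol, had 109 against 29.0 CPM, 3.76-fold (2.46 to 5.77) and Rbp7, of the same vitamin A pathway, 148 against 581 CPM, 0.255-fold (0.199 to 0.323). Slc6a6, the taurine transporter, had 138 against 25.4 CPM, 5.44-fold (3.59 to 8.38). Pltp, the phospholipid transfer protein, had 482 against 160.3 CPM, 3.01-fold (2.50 to 3.62) and Slc26a10 301 against 101 CPM, 2.98-fold (2.35 to 3.77). All but Rbp7 were higher in EOM labelled WT than in TA labelled WT. Cldn5 had 512 against 1309 CPM, 0.391-fold (0.342 to 0.446) and Esm1 176 against 501 CPM, 0.351-fold (0.279 to 0.439). Car2 had 291 against 703 CPM, 0.413-fold (0.345 to 0.492) and Dusp6, a phosphatase that acts on ERK, 154 against 422 CPM, 0.366-fold (0.285 to 0.464). These were lower in EOM labelled WT. After thinning the calls of Lrat, Pltp, Esm1, Dusp6, Cxcr4 and Car2 were lost. Of 20 tested arterial genes 1 was lower (Cxcr4) and 1 higher (Ltbp4, which did not pass the guard), with a median log2 ratio of 0.07 against 0.0025 over all genes tested. Of 9 Notch pathway genes and 11 flow-responsive genes none was called.

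In the pair labelled DMD, the genes named as higher in EOM included Cxcl12, Abcb4, Lrat and Apold1. Of 1819 genes 18 (0.99%) were called higher and 41 (2.25%) lower in EOM labelled DMD, and 19 (1.04%) passed the guard in either direction. Cxcl12 had 6157 CPM in EOM labelled DMD against 2526 CPM in TA labelled DMD, a ratio of 2.44 (2.35 to 2.53). Abcb4 had 122 against 2.06 CPM, 59.1-fold (24.5 to 186), with 5 UMIs in TA labelled DMD. Cxcl12 and Abcb4 were thus higher in EOM labelled DMD. Lrat had 115 against 35.9 CPM, 3.20-fold (2.38 to 4.32) and Apold1 619 against 233 CPM, 2.66-fold (2.36 to 3.0). Rnd1, a small GTPase, had 351 against 91.6 CPM, 3.83-fold (3.21 to 4.57). Ier5l had 282 against 89.9 CPM, 3.13-fold (2.60 to 3.77) and Herc6 121 against 40.4 CPM, 2.98-fold (2.24 to 3.97). All of these were higher in EOM labelled DMD than in TA labelled DMD.

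Capg had 79.3 CPM in EOM labelled DMD against 293 CPM in TA labelled DMD, a ratio of 0.271 (0.209 to 0.347). Ifitm1 had 111 against 356 CPM, 0.313-fold (0.251 to 0.386), with 39.2% of its UMIs in EOM labelled DMD from 1 barcode. Tmem45b had 32.2 against 127 CPM, 0.254-fold (0.166 to 0.375) and Rbp7 438 against 1044 CPM, 0.420-fold (0.376 to 0.467). In TA labelled DMD 1 barcode held 17.4% of the Rbp7 UMIs, and without the top barcode of each library Rbp7 had 424 against 869.6 CPM, 0.488-fold (0.435 to 0.545), and was no longer called. These were lower in EOM labelled DMD. Scarb1, the receptor for high-density lipoprotein, had 138 against 337 CPM, 0.409-fold (0.335 to 0.496). Pdia5, a protein disulfide isomerase, had 43.7 against 125 CPM, 0.351-fold (0.243 to 0.492) and Ifi27l2b 359.7 against 915 CPM, 0.393-fold (0.348 to 0.443). After thinning the calls of Abcb4, Lrat, Herc6, Tmem45b, Pdia5, Rbp7 and Scarb1 were lost, and that of Abcb4 also without barcodes that held other cell types' UMIs. Of 20 tested arterial genes none was called in this pair, with a median log2 ratio of 0.16 against 0.01 over all genes tested. Of 8 Notch pathway genes 1, Nrarp, was higher, with 1868 against 811 CPM, 2.30-fold (2.16 to 2.46). All 3 tested smooth muscle genes and 2 of 4 pericyte genes were lower in EOM labelled DMD.

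**Figure D5:**
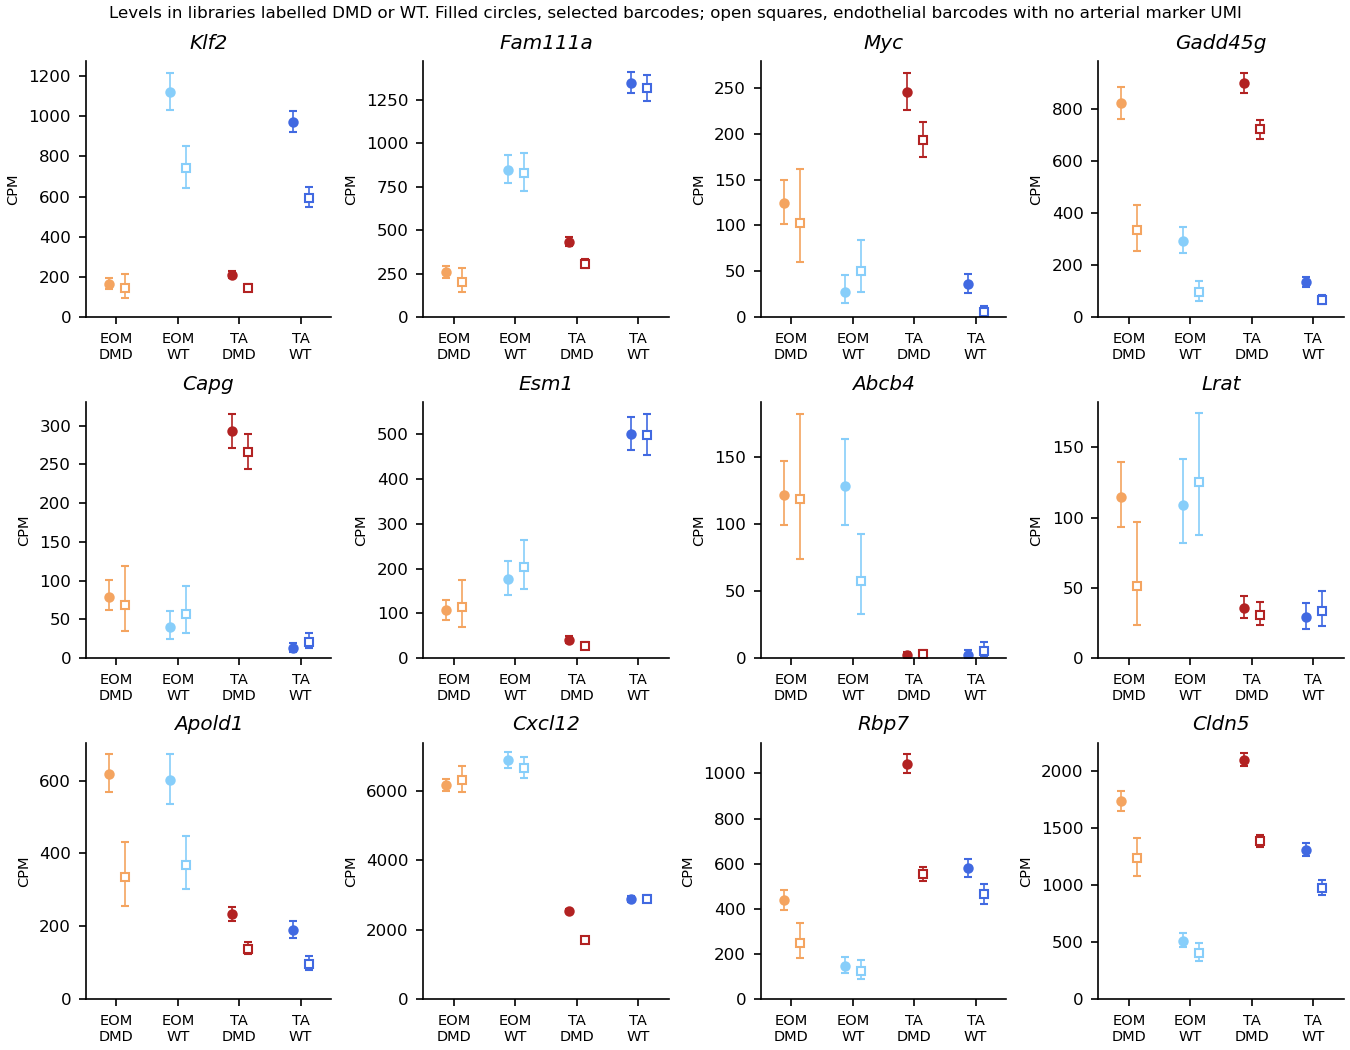
CPM (y axis) of 12 named genes in the 4 libraries (x axis, EOM and TA labelled DMD or WT) for Sox17-rich barcodes (filled circles) and marker-free endothelial barcodes (open squares), with exact 95% Poisson intervals. Klf2 and Fam111a are lower and Myc higher in the DMD library of each muscle, and Abcb4, Lrat, Apold1 and Cxcl12 are higher in both EOM libraries. In TA the marker-free barcodes had Klf2 at 146 CPM labelled DMD and 595 CPM labelled WT.

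Marker-free endothelial barcodes differed between libraries in these genes too. Cxcl12 in them had 6657 against 2889 CPM in EOM labelled WT against TA labelled WT, and Klf2 148 against 742 CPM in EOM labelled DMD against EOM labelled WT. Whether any difference between libraries is particular to the Sox17-rich barcodes was not tested, since each group has 1 library.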

How the data were processed

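Single-cell RNA was measured in 4 libraries made with Chromium 3' chemistry 3.1 from enzyme-digested muscle, 1 library per muscle and disease state, at 12 months. The deposited UMI counts per gene and barcode are the output of Cell Ranger, version 4.0.0 per the file headers, on build rn6 per the submitters' processing notes. They are whole counts, not normalized, for 25399 genes, of which 148 symbols stand on more than 1 row. Those rows were kept apart in the test and the calls, and were pooled by symbol only in sums over markers and lists. Total UMIs per library ran from 9468266 to 20685086 over 1917 to 8944 barcodes. Muscle and disease state field set the groups.

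Barcodes were kept, gated and selected by the rule the results open with. Genes of the rule number 17 and were left out of every call. CPM is a gene's summed UMIs per 1000000 UMIs of a class of barcodes, with exact 95% Poisson intervals, and ratios have conditional binomial intervals, which treat UMIs as independent molecules. Counts summed per library and class, with at least 20 barcodes, were compared between Sox17-rich and marker-free barcodes with edgeR 4.0.16 in R 4.3.3 (TMM scaling, filterByExpr, quasi-likelihood test, library as a block, Benjamini-Hochberg adjustment). The same fit against barcodes with over 2 venous UMIs and fewer than 3 arterial ones could not be fitted, since only TA labelled DMD had at least 20 of them (493, against 11, 5 and 13 in EOM labelled DMD, EOM labelled WT and TA labelled WT). Tested on simulated data for Sox17-rich against marker-free barcodes, on 7476 genes, the fit recovered 89 of 100 genes changed by a log2 of 2 and 76 of 100 changed by a log2 of 1, with 9 false calls. The simulation gave all genes 1 common spread and each changed gene the same change in each library. It thus does not give the recovery of real genes whose spread or change differs. Between libraries there is no test, and the rule of calls is stated with the results.

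Genes were named by a rule. Against marker-free barcodes these were up to 12 per direction with an adjusted p under 0.05, the same direction in each library and at least 100 CPM. Between libraries these were up to 8 per direction, ordered by log2 ratio after adding 10 CPM to both sides, among called genes that passed the free RNA guard and were found in at least 10% of the barcodes of the higher library, plus the rule genes and the genes of lists (arterial, Notch, flow-responsive, capillary, immediate-early and others). Some genes that the rule names are not reported here. The selection rule, these lists and the comparisons were chosen with earlier results of these data known. Doublets were scored with Scrublet in scanpy 1.11.5, whose own threshold marked 30 of 14233 barcodes, under 0.5% in 3 libraries, so that none was removed, and the highest scores (0.8% per 1000 barcodes) were left out as an alternative, with 31 of the 1472 Sox17-rich barcodes among them. Alternatives covered depth, thinning, the gate and the marker rule, other cell types' UMIs, scaling, filters, DESeq2 1.42.0 and each library left out. The alternatives of the split by Gja5, Gja4 and Sema3g, and the one without the top barcode of each library, were chosen after seeing the data.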

Additional observations from a re-analysis of the deposited data

Results flagged for a closer look

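Haemoglobin genes, which mark red blood cells, differed in opposite directions between the muscles. Hbb had 8.04 CPM in EOM labelled DMD against 148 CPM in EOM labelled WT, a ratio of 0.0543 (0.0211 to 0.117), and 346 CPM in TA labelled DMD against 65.0 CPM in TA labelled WT, a ratio of 5.33 (4.29 to 6.68). Hba-a1 had 48.3 CPM in EOM labelled DMD against 289 CPM in EOM labelled WT, a ratio of 0.167 (0.116 to 0.237), and 887 CPM in TA labelled DMD against 304 CPM in TA labelled WT, a ratio of 2.91 (2.63 to 3.24). What drew attention is that the DMD library was lower in EOM and higher in TA, and the difference between the muscles was not tested, since each group has 1 library. In TA labelled DMD 1 of 622 Sox17-rich barcodes held 87.4% of the Hbb UMIs and 83.5% of the Hba-a1 UMIs. Leaving out the top barcode of each library gave Hbb 43.9 CPM in TA labelled DMD against 55.9 CPM in TA labelled WT, and Hba-a1 147 CPM against 219 CPM, so the direction in TA turned. In EOM the same step gave Hbb 5.77 CPM in EOM labelled DMD against 67.8 CPM in EOM labelled WT, and Hba-a1 45.0 CPM against 269 CPM. Neither gene passed the free RNA guard in either muscle.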

How the results depend on the processing

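The share of endothelial barcodes that met the rule moved in each library with the marker minimum, the depth and mitochondrial limits, thinning and Sox17. It also moved in each as a share of all kept barcodes. Only in TA labelled DMD did it move with almost every setting of the rule. Values follow in the order EOM labelled DMD, EOM labelled WT, TA labelled DMD and TA labelled WT. They were 53.1%, 37.1%, 23.6% and 33.0% from 1000 UMIs up with a limit of 10% mitochondrial UMIs, 59.9%, 47.9%, 22.4% and 41.4% with at least 2 marker UMIs, and 31.7%, 21.3%, 8.13% and 17.7% with at least 4. They were 14.8%, 9.52%, 4.71% and 7.43% after thinning to 1000 UMIs, 1.94%, 1.16%, 1.46% and 2.48% without Sox17, and 11.2%, 13.2%, 7.28% and 20.1% of all kept barcodes. In TA labelled DMD alone the share also moved by more than counting error with a gate of 0.5% (11.8%) or 2% (19.0%), no limit on venous UMIs (18.5%), no venous UMI (10.9%), the highest doublet scores removed (14.6%), other cell types' barcodes removed (18.8%) and the rule without Gja4 (12.2%). The DMD library was above its WT library in EOM and below it in TA in all of these except the share of all kept barcodes, where EOM turned, and the cause was not tested.

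Against marker-free barcodes, the genes called higher and lower numbered 3 and 2 with edgeR, and the same with RLE scaling. DESeq2 gave 42 and 12, no low-count filter 100 and 137 (of 15773 genes), thinning 19 and 23, at least 2000 UMIs 8 and 0 (429 at an unadjusted p under 0.05), removing other cell types' barcodes 69 and 39, removing the highest doublet scores 11 and 8, at least 4 marker UMIs 7 and 6, and marker-free barcodes replaced by those with 0 to 2 marker UMIs 2 and 3. The fit pairs the classes within each library through a library block, and without it 0 and 0 genes were called by edgeR, 155 at an unadjusted p under 0.05. Leaving out 1 library at a time gave 0 to 92 higher and 1 to 30 lower, with 92 and 30 without TA labelled DMD, 4 and 24 without TA labelled WT, 0 and 3 without EOM labelled DMD and 0 and 1 without EOM labelled WT. The log2 fold changes kept their direction over 14 alternatives, at 0.46 to 0.87 for Apold1, 0.46 to 0.77 for Nrarp, 0.52 to 0.82 for Rgs16 and -0.79 to -0.46 for Mt-nd4l, and 17 of 56 of these values were no longer past the threshold.

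Between libraries, a floor of 20 CPM in place of 100 CPM gave 86 higher and 33 lower for EOM labelled DMD over WT, 153 and 73 for TA labelled DMD over WT, 24 and 50 for EOM over TA labelled WT, and 47 and 86 for EOM over TA labelled DMD, from more genes tested. Thinning gave 15 higher for EOM labelled DMD over WT, 19 lower for TA labelled DMD over WT and 4 lower for EOM over TA labelled WT, from fewer UMIs. Removing other cell types' barcodes gave 16 higher for EOM labelled DMD over WT, and 36 higher and 19 lower for TA labelled DMD over WT. Of 660 values of named genes under the alternatives, 1 of them (the top barcode of each library left out) chosen after seeing the data, none changed direction, 612 kept their call or stayed within their counting interval, 40 lost their call and 8 moved beyond their counting interval. Another amount of CPM added to both sides, or the floor of 20 CPM, could neither take a call from a named gene nor turn its direction. The values of these alternatives, counted among the 612, were thus fixed in advance. In the split by Gja5, Gja4 and Sema3g, both alternatives were chosen after seeing the data, and 3 of 168 values turned, 38 moved beyond their counting interval and 127 did not. Rgs5 in TA labelled WT had a log2 ratio of -0.29 without other cell types' barcodes and -0.045 with Gja5 or Sema3g only, and Kcnj8 in TA labelled DMD had -0.44 without other cell types' barcodes. The step without other cell types' barcodes itself counted pericyte genes, Rgs5 among them.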

Other observations

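Genes that mark position along the body separated the muscles in the Sox17-rich barcodes. Hoxb4, a homeobox gene of the trunk, had 0, 0, 41.7 and 50.9 CPM in EOM labelled DMD, EOM labelled WT, TA labelled DMD and TA labelled WT. Hoxb7 had 0, 0, 46.2 and 36.7 CPM, Hoxb5 0, 0, 19.4 and 15.5 CPM and Hoxd9 2.30, 0, 36.3 and 28.3 CPM in the same order. A count of 0 allows up to 3.45 CPM in EOM labelled DMD and 5.93 CPM in EOM labelled WT, so Hoxb4, Hoxb5 and Hoxb7 stood above that limit in both TA libraries. Marker-free barcodes had Hoxb4 at 0, 0, 30.9 and 66.7 CPM and Hoxb7 at 0, 0, 39.8 and 54.0 CPM. All are below the 100 CPM needed for a call, and these 4 genes were picked from a list of position genes after their values were seen.

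Over all genes tested 0.902% were called lower in EOM labelled DMD and 1.55% in TA labelled DMD. Of 9 tested basement membrane genes, Col15a1 was the 1 called in each muscle, with 49.4 against 184 CPM, 0.269-fold (0.183 to 0.390) in EOM labelled DMD against EOM labelled WT and 73.0 against 234 CPM, 0.311-fold (0.258 to 0.375) in TA labelled DMD against TA labelled WT, and it did not pass the free RNA guard in EOM. Of 10 BMP and TGF-beta pathway genes, Id1, a target of BMP signalling, was the 1 called in TA, with 649 against 1971 CPM, 0.329-fold (0.309 to 0.350) in TA labelled DMD against TA labelled WT, and none was called in EOM, where Id1 had 1056 against 1777 CPM, 0.594-fold (0.541 to 0.652) in EOM labelled DMD against EOM labelled WT. Of 7 tested genes of vascular tone none was called in either muscle between the libraries labelled DMD and WT.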
